A study of Mus musculus with 30 samples.

Results

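Dbp, Tef and Hlf, which encode the PAR bZIP transcription factors that carry the output of the circadian clock, and Nfil3, which encodes their antagonist, were followed in the mouse colon. The 4 genes were chosen by gene name among 46078 genes measured by RNA-seq in 30 animals, and all 4 passed the filter on low counts in every comparison. The study asked how sex, diet and estrogen shape the colon transcriptome. All animals were C57BL/6J mice, 5 to 6 weeks old at the start, and the females kept their ovaries. There were 5 groups of 6 animals: females (CD F) and males (CD M) on a matched low-fat control diet (CD), females (HFD F) and males (HFD M) on a high-fat diet (HFD), and HFD males given estradiol (HFD+E2 M). Each diet lasted 13 weeks. Vehicle, or E2 at 0.5 mg/kg body weight in HFD+E2 M, was given in 9 intraperitoneal injections over the last 3 weeks. Among these libraries E2 was given to HFD males alone, so they hold no females and no CD animals given E2. As the study states, tissue was taken at a single time of day and the oestrous stage of the females was not followed, so these libraries hold levels at 1 clock time and no rhythm.

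Each library held between 8667177 and 17243712 counts assigned to genes (median 11530916), with between 26.1% and 38.0% of them on mitochondrial genes. Levels are given in TPM, the share of all transcripts that a gene contributes after correction for its length, which allows genes to be compared with each other. Differences between groups are log2 fold changes of the counts from edgeR's quasi-likelihood test, with p-values adjusted by Benjamini-Hochberg over all genes tested. A gene passed when its adjusted p was under 0.05, and the looser threshold of the study (unadjusted p under 0.05 and a log2 fold change beyond 0.4) is given beside it. Xist lay between 100.1 and 155.2 TPM in the 12 female libraries and reached at most 0.119 TPM in the 18 male libraries, as the labels have it. Markers of the labelled tissue were present. The summed level of 13 colon epithelial genes lay between 3064 and 4945 TPM (most abundant Krt8) and that of 7 goblet cell genes between 2576 and 7058 TPM (most abundant Muc2).

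PAR bZIP factors bind the D-box, a short DNA element in the promoters of clock and metabolic genes. In the textbook scheme, the activators Bmal1 (gene Arntl) and Clock drive Dbp, Tef and the REV-ERB repressors (Nr1d1, Nr1d2) through E-boxes, the REV-ERB proteins in turn hold down Arntl and Nfil3 through the RORE element, and Nfil3 protein competes with DBP, TEF and HLF for the D-box, so that output factors and Nfil3 peak at opposite phases of the day. In liver and gut the PAR bZIP factors are known for setting the daily course of detoxification genes, and Nfil3 in the intestinal epithelium is known for linking the clock to lipid uptake.

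Dbp (ENSMUSG00000059824) lies on the plus strand of chr7:45705088-45710155 in GRCm38, Tef (ENSMUSG00000022389) on the plus strand of chr15:81802421-81826861, Hlf (ENSMUSG00000003949) on the minus strand of chr11:90336536-90390895 and Nfil3 (ENSMUSG00000056749) on the minus strand of chr13:52967209-52981073. The 250 bases before each annotated RefSeq start (GRCm38.p6, 5 entries for the 4 genes) were searched on both strands for the E-box CACGTG, its variant CACGTT, the D-box as TTATGTAA, TTACGTAA or TTATGCAA, and the RORE as TAGGTCA. An E-box stood before each of the 2 Tef starts and a RORE stood before the Nfil3 start. The letters searched were not in the Dbp and Hlf windows. Among 32536 promoters of that length, 6.04% held CACGTG, 3.87% CACGTT, 1.61% a D-box and 2.24% TAGGTCA. The 30 bases around each match are shown, with the match in capitals. The matched letters are those of elements named in the clock scheme above, the E-box for the activators and the RORE for the REV-ERB proteins.
Tef, first start, chr15:81802534-81802563, plus strand, E-box: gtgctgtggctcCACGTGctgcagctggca
Tef, second start, chr15:81811264-81811293, plus strand, E-box: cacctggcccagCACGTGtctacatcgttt
Nfil3, chr13:52981033-52981062, minus strand, RORE read on the opposite strand: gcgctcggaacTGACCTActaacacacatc
GENCODE places the first Tef window and the Nfil3 window inside an exon, since its transcripts start farther upstream, and the second Tef window in an intron. A match is a description of the sequence and not evidence of binding in these animals.

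Among the 4 genes, Tef had the highest mean level in all 5 groups, followed by Dbp, and Nfil3 had the lowest in every group but CD F, where Hlf was lower still. Tef, a PAR bZIP activator, had its highest mean in HFD M at 51.0 ± 5.36 TPM (SD, n = 6) and its lowest in CD F at 15.3 ± 6.10 TPM. Dbp, the output factor with the widest daily swing in most tissues, followed the same course, from 39.4 ± 5.42 TPM in HFD M to 7.07 ± 8.51 TPM in CD F. Hlf, the third member of the family, stayed low, between 3.65 ± 0.681 TPM in HFD M and 1.41 ± 0.496 TPM in CD F. Nfil3 ran the other way and its mean was highest in CD F at 2.07 ± 0.615 TPM. Its mean was 1.12 ± 0.504 TPM in HFD F, 0.752 ± 0.238 TPM in HFD M, 0.717 ± 0.241 TPM in CD M and 0.692 ± 0.286 TPM in HFD+E2 M. All 3 output factors thus had their lowest mean, and Nfil3 its highest, in CD females. Nfil3 rested on few reads, between 3 and 51 counts per library, so its single values carry a large counting error.

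**Figure D1:**
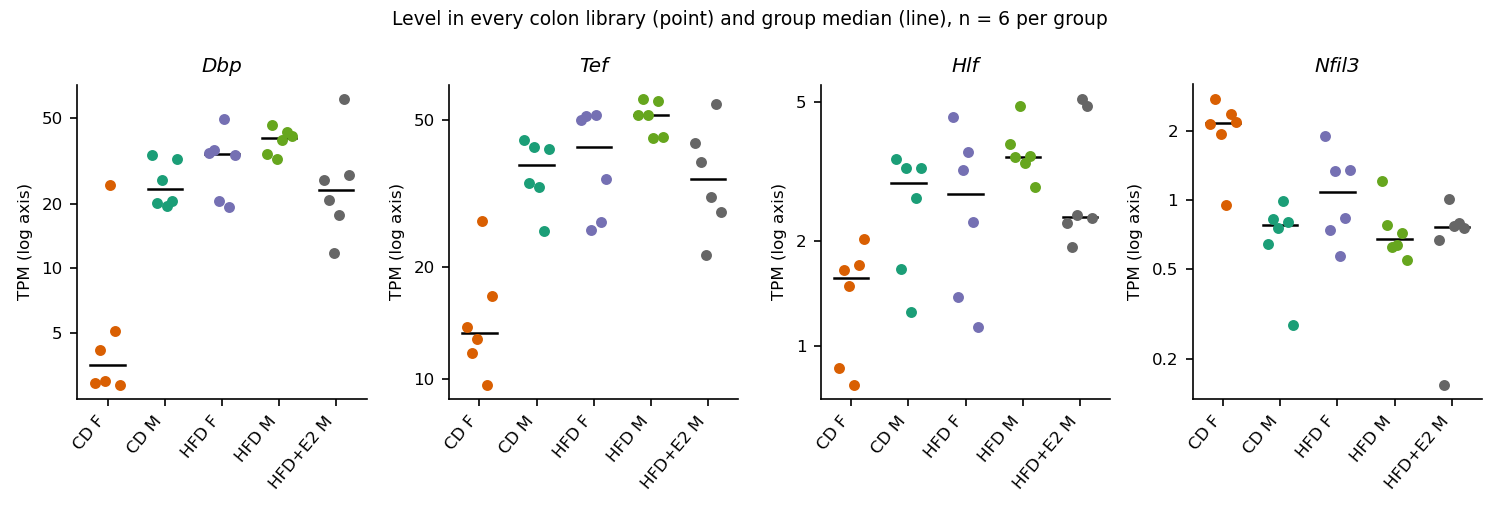
TPM (log axis) of Dbp, Tef, Hlf and Nfil3 in each of the 30 colon libraries (points), by group, with the group median as a line and 6 animals per group. CD females were lowest in Dbp, Tef and Hlf and highest in Nfil3, and 1 CD female stood at 24.3 TPM of Dbp and 0.953 TPM of Nfil3, apart from the other 5.

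Ordered by mean level, Dbp ran HFD M, HFD F, HFD+E2 M, CD M and CD F. Tef ran HFD M, HFD F, CD M, HFD+E2 M and CD F, and Hlf ran HFD M, HFD+E2 M, HFD F, CD M and CD F. For Tef and Hlf the last step, down to CD F, was the step at which neighbours differed (adjusted p = 0.0303 for Tef against HFD+E2 M and 0.0255 for Hlf against CD M). For Dbp no neighbours differed, with an adjusted p of 0.0768 for the last step. For Nfil3 the order was CD F, HFD F, HFD M, CD M and HFD+E2 M, and no neighbours in it differed either, the smallest adjusted p being 0.4996 for CD F against HFD F. The 3 male groups could not be placed in order for any of the 4 genes.

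A library of the CD F group stood apart. CD F replicate 4 held 24.3 TPM of Dbp, against 2.89 to 5.12 TPM in the other 5 CD females, and 26.7 TPM of Tef, against 9.64 to 16.7 TPM. Its Nfil3 was 0.953 TPM, against 1.96 to 2.78 TPM. Clock genes outside the 4 stood apart in the same animal: Nr1d1, a REV-ERB repressor, was at 53.5 TPM against 7.50 to 22.4 TPM in the other 5, and Arntl, the clock activator, at 11.2 TPM against 21.99 to 30.7 TPM. Its Hlf, at 0.772 TPM, was the lowest of the group in TPM, but not in scaled counts (4.53 CPM, against 3.06 and 3.47 CPM in replicates 1 and 5). In TPM, its Dbp, Tef and Nfil3 lay within the range of the CD males. In scaled counts its Nfil3 (1.75 CPM) lay above every CD male (at most 1.40 CPM). Fold changes of the 4 genes that involve CD F are therefore given with and without it, as are the calls on clock genes in the main comparisons. The animal was singled out by its own values of these genes. The p-values without it are therefore a description of its influence and no support for a difference.

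The first comparison asked whether the sexes differed during CD. Tef and Hlf were lower and Nfil3 was higher in CD females than in CD males, while Dbp differed by more than any other of the 4 but did not pass. Of 14922 genes tested, 2.92% passed, beside 3 of these 4 genes, and all 4 met the looser threshold, which 9.15% of genes met. Tef had a lowest, median and highest level of 9.64, 13.3 and 26.7 TPM in CD F, and 25.1, 37.7 and 44.2 TPM in CD M. The groups overlapped through CD F replicate 4 alone. The log2 fold change was -1.25 (SE 0.22, edgeR adjusted p = 0.00686), and -1.50 (adjusted p = 0.000105) without that animal. Because whole tissue was sequenced, fewer cells expressing a gene and less RNA per cell cannot be told apart here or in the later comparisons.

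Hlf ranged over 0.772, 1.57 and 2.02 TPM (lowest, median, highest) in CD F and over 1.25, 2.94 and 3.44 TPM in CD M. The 2 lowest CD males lay within the range of the females. Hlf had a log2 fold change of -0.998 (SE 0.23, edgeR adjusted p = 0.0255), and -0.99 with an adjusted p of 0.0535 without CD F replicate 4. Hlf also lost its call without CD F replicate 5 (adjusted p = 0.0613), CD M replicate 3 (0.0672) or CD M replicate 5 (0.0554). Dbp ranged over 2.89, 3.58 and 24.3 TPM in CD F and over 19.6, 23.3 and 33.6 TPM in CD M. In 5 of 6 CD females it lay below every CD male, and in CD F replicate 4 it lay among them. Dbp had a log2 fold change of -1.94 (SE 0.53, adjusted p = 0.0768), and -2.91 (SE 0.25, adjusted p = 1.62e-05) without that animal.

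Nfil3 ranged over 0.953, 2.18 and 2.78 TPM in CD F and over 0.284, 0.777 and 0.990 TPM in CD M. The groups met in TPM only at CD F replicate 4, and on normalised log2 counts they did not overlap, which held for 2.18% of the genes tested. Nfil3 was higher by 1.64 on the log2 scale (SE 0.27, edgeR adjusted p = 0.00383), and 1.77 (adjusted p = 0.0015) without CD F replicate 4. These values rest on a median of 36.5 counts of Nfil3 in CD F and 13 counts in CD M. With limma on TPM (0.1 added) the call was lost (adjusted p = 0.0507). Over the other settings tried, the log2 fold change of Nfil3 lay between 0.82 and 1.95.

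Cell type markers moved with this contrast. All 12 smooth muscle genes were lower in CD F at the looser threshold, 7 of them with an adjusted p under 0.05, and their summed level was 3482, 4064 and 5291 TPM (lowest, median, highest) in CD F against 5283, 7190 and 8800 TPM in CD M, with Acta2 the most abundant. The summed level of 10 B cell genes was 14.3, 35.0 and 71.5 TPM in CD F and 0.888, 7.17 and 55.9 TPM in CD M (most abundant Cr2), with 5 of the 10 higher in CD F at the looser threshold and none past the adjusted one. At the looser threshold 4 of 7 fibroblast, 4 of 9 endothelial, 3 of 10 macrophage and 3 of 12 colon epithelial genes were lower in CD F and 4 of 7 goblet cell genes higher. Of these, 2 fibroblast, 2 endothelial and 2 goblet cell genes also passed the adjusted threshold. Their part in the result was not tested. With the mean log2 level of the smooth muscle genes as a covariate, the log2 fold change was -1.37 for Tef (adjusted p = 0.0655), -1.28 for Hlf (0.0411), 1.95 for Nfil3 (0.0247) and -1.64 for Dbp (0.273). With the B cell genes as a covariate, it was -1.32 for Tef (adjusted p = 0.0716), -1.06 for Hlf (0.151), 1.73 for Nfil3 (0.0481) and -1.86 for Dbp (0.460). With either covariate the values of Tef, Hlf and Nfil3 were no smaller in size, and that of Dbp was smaller than the -1.94 without one. The calls on Tef and, with B cells, on Hlf were lost. Since both sets of marker genes themselves differed between CD F and CD M, these fits cannot separate their part from that of sex.

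Dbp has a further limit of measurement. Its end shares 539 exonic bases with Sphk2, a sphingosine kinase gene on the opposite strand with a median of 297 counts per library. The libraries were stranded, but the strand setting of the counting is not given in the sources used here. Sphk2 itself differed little between CD F and CD M (log2 fold change 0.08, SE 0.16, adjusted p = 0.877). After E2, Sphk2 differed by 0.36 from HFD M (SE 0.34, adjusted p = 0.671) and by 0.31 from CD M (SE 0.17, adjusted p = 0.555). In size these are no smaller than the values of Dbp in those comparisons (-0.27 and 0.21), and the first has the opposite sign. The count of Dbp scaled to depth (CPM) was between 0.687 and 2.996 times its TPM in the same library, so that both deposited measures do not rank all animals alike. For Hlf, for which no overlapping gene was found, CPM was between 1.80 and 5.86 times its TPM. It was between 2.08 and 3.70 times for Tef and between 1.24 and 1.94 times for Nfil3. In proportion, the span of Dbp was the widest of the 4 genes and that of Hlf the next. For Tef, the opposite-strand gene Gm17597 shares 193 exonic bases and had at most 7 counts.

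**Figure D2:**
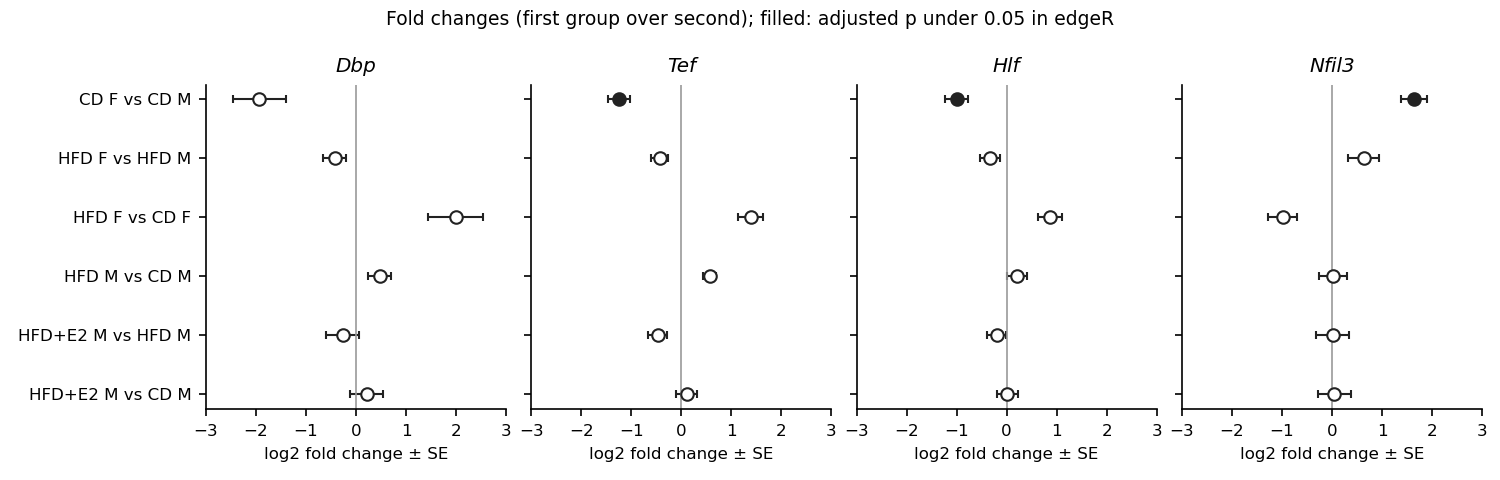
Log2 fold change ± SE (first group over second) of Dbp, Tef, Hlf and Nfil3 in 6 comparisons of 6 against 6 animals, with filled points where edgeR's adjusted p was under 0.05. Filled points stand in the CD F against CD M row alone, for Tef, Hlf and Nfil3. Nfil3 is opposite in sign to the output factors in CD F against CD M, HFD F against HFD M and HFD F against CD F. In HFD+E2 M against HFD M it is also opposite, but near 0 (0.01).

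During HFD the sex differences had the same signs and were smaller. Of 15179 genes tested in HFD F against HFD M, 0.0988% passed the adjusted threshold and 3.09% the looser one. None of the 4 genes passed the first and Tef passed the second. Tef had a lowest, median and highest level of 25.2, 42.3 and 51.5 TPM in HFD F and of 44.6, 51.5 and 57.1 TPM in HFD M. The upper 3 HFD females lay among the males and the lower 3 below them all. The log2 fold change of Tef was -0.44 (SE 0.165, edgeR adjusted p = 0.872). That of Dbp was -0.43, that of Hlf -0.34 and that of Nfil3 0.63, each with an adjusted p of 0.872. Without HFD M replicate 1, whose Nfil3 of 1.21 TPM stood above the 0.548 to 0.774 TPM of the other 5 HFD males, the value for Nfil3 was 0.76 (adjusted p = 0.9997). Genes of stratified squamous epithelium had a median log2 fold change of 2.36 (19 tested, 1 higher at the looser threshold). At that threshold 1 of 12 smooth muscle and 1 of 9 endothelial genes were lower. There 1 of 7 goblet cell, 1 of 7 adipocyte and 1 of 2 T cell genes were higher. Under the other settings none of the 4 genes passed, and Hlf ranged from -0.62 to -0.29.

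Fitted over both diets, with diet as a term, the log2 fold change of females over males was -0.84 for Tef (adjusted p = 0.00857), -0.66 for Hlf (0.0402) and 1.16 for Nfil3 (0.00525). These 3 genes passed, as did 1.8% of all 15800 genes tested, and all 4 met the looser threshold, met by 5.53%. Dbp, at -1.14, did not pass (adjusted p = 0.0983), and did without CD F replicate 4 (-1.46, adjusted p = 0.0288). Without it the values were -0.93 for Tef (adjusted p = 0.00424), -0.64 for Hlf (0.0701) and 1.21 for Nfil3 (0.00475). At the looser threshold 4 of 12 smooth muscle genes (1 past the adjusted one) and 4 of 9 endothelial genes (3 past it) were lower in females, and 7 of 18 squamous genes were higher with none past it. The endothelial genes' part in these values was not tested. This fit uses the same animals as the comparisons within each diet and is no independent evidence. The call on Hlf rested on the full set of animals. Its adjusted p lay between 0.0191 and 0.075 when each was left out in turn, and was above 0.05 in 13 of the 24 fits. The call was also lost with the smooth muscle or B cell genes as covariate and with limma on TPM. That on Nfil3 was lost with limma on TPM (0.1 added, highest adjusted p = 0.0613).

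The next comparison asked what HFD did in females. All 3 output factors had higher levels and Nfil3 had lower levels in HFD F than in CD F, but none of the 4 passed the adjusted threshold, which only 0.0199% of 15061 genes did. All 4 met the looser threshold, met by 3.67% of genes. The CD females enter both this comparison and the one against CD males. Dbp ranged over 19.2, 33.8 and 49.1 TPM in HFD F against 2.89, 3.58 and 24.3 TPM in CD F. The groups overlapped through CD F replicate 4 alone. Dbp differed by 1.99 on the log2 scale (SE 0.54, edgeR adjusted p = 0.496), and 2.95 (SE 0.25, adjusted p = 0.000118) without that animal.

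Tef ranged over 25.2, 42.3 and 51.5 TPM in HFD F against 9.64, 13.3 and 26.7 TPM in CD F. Again CD F replicate 4 was the sole CD female within the range of the HFD females. The log2 fold change of Tef was 1.39 (SE 0.24, adjusted p = 0.153), and 1.63 (adjusted p = 0.00312) without CD F replicate 4. It was 1.37 with DESeq2, the tool named in the study's methods, with an adjusted p of 1.23e-05 and more genes kept for testing. Hlf ranged over 1.13, 2.73 and 4.52 TPM in HFD F and overlapped CD F broadly, with a log2 fold change of 0.87 (SE 0.24, edgeR adjusted p = 0.446), and 0.85 (adjusted p = 0.476) without CD F replicate 4. Nfil3 ranged over 0.568, 1.09 and 1.92 TPM in HFD F, and all but CD F replicate 4 of the CD females lay above that range. Its log2 fold change was -0.98 (SE 0.29, edgeR adjusted p = 0.4996), and -1.12 (adjusted p = 0.383) without that animal.

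Markers of stratified squamous epithelium, which lines the anus and not the colon, were present in some HFD females. The summed level of the 20 genes was 30.8, 1051 and 2000 TPM in HFD F (most abundant Krt13), 28.9, 54.7 and 797 TPM in HFD M and at most 56.1 TPM in CD F and CD M. Krt5, a defining gene of that tissue, was listed at 0 in HFD F replicates 2 and 6, whose sums were 48.6 and 30.8 TPM, and these 2 animals held 35.3 and 33.5 TPM of Dbp and 51.4 and 34.7 TPM of Tef, inside the range of the other 4. Their Hlf, at 1.38 and 1.13 TPM, lay below the 2.26 to 4.52 TPM of the other 4 HFD females and within the range of the CD females. With the squamous genes as a covariate the log2 fold change in HFD F against CD F was 2.12 for Dbp, 1.48 for Tef, -1.07 for Nfil3 and 0.23 for Hlf, so that for Hlf the value was 0.23 in place of 0.87. Fibroblast genes were also higher in HFD F at the looser threshold for 3 of 7, and their part in these results was not tested.

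In males the same diet was accompanied by smaller differences. Of 14991 genes tested in HFD M against CD M, 0% passed the adjusted threshold (904 genes, or 6.03%, had an unadjusted p under 0.05, and DESeq2 called 26), and 2.9% met the looser one, Tef among them. Tef ranged over 44.6, 51.5 and 57.1 TPM in HFD M against 25.1, 37.7 and 44.2 TPM in CD M. Every HFD male lay above every CD male, which held in this direction for 0.187% of genes. Tef differed by 0.57 on the log2 scale (SE 0.13, edgeR adjusted p = 0.390). It was 0.48 for Dbp (adjusted p = 0.826), 0.20 for Hlf and 0.02 for Nfil3, and the ranges of these 3 genes overlapped between the groups. At the looser threshold 2 of 4 squamous genes tested were higher in HFD M, and 1 of 12 smooth muscle and 1 of 12 colon epithelial genes lower. With the squamous genes as a covariate the value for Tef was 0.54, and with the smooth muscle genes 0.47.

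Fitted over both sexes, Tef was higher during HFD (log2 fold change 0.97, SE 0.17, edgeR adjusted p = 0.0254), one of the 0.418% of 15800 genes that passed. All 4 met the looser threshold, met by 2.71%. The values were 1.19 for Dbp (adjusted p = 0.208), 0.52 for Hlf (0.299) and -0.54 for Nfil3 (0.651). The call on Tef was lost without CD F replicate 2 (adjusted p = 0.0524), replicate 3 (0.0556) or replicate 5 (0.0516), with the log2 fold change between 0.90 and 0.94. Without CD F replicate 4 the values were 1.06 for Tef (adjusted p = 0.0115), 1.51 for Dbp (0.0521), 0.50 for Hlf (0.369) and -0.59 for Nfil3 (0.460). Over both sexes 13 of 18 squamous genes tested passed and were higher during HFD, and with them as a covariate the value for Tef was 0.91 (adjusted p = 0.102). Of 8 adipocyte genes 1 passed and 2 met the looser threshold, all higher, and their part in the result was not tested.

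Whether HFD acted differently in the sexes was tested directly by the interaction of sex and diet. The change with HFD was larger in females than in males by 1.51 on the log2 scale for Dbp, by 0.81 for Tef and by 0.66 for Hlf, and it was lower by 1.02 for Nfil3 (interaction term -1.02). None of the 4 passed, with adjusted p-values of 0.665, 0.630, 0.733 and 0.665, and no gene of 15800 did in edgeR (0% called, 1066 genes or 6.75% at an unadjusted p under 0.05). All 4 met the looser threshold, which 5.18% of genes met. So did 3 of 12 smooth muscle, 3 of 7 fibroblast, 1 of 10 macrophage and 1 of 12 colon epithelial genes, all with positive terms. The part of the fibroblast, macrophage and epithelial genes was not tested. The term for Hlf was 0.33 with the squamous genes as a covariate and 0.24 or 0.14 with limma on TPM (0.1 or 1 added). Without CD F replicate 4 the interaction was 2.48 for Dbp (adjusted p = 0.00897), 1.06 for Tef (0.294), 0.64 for Hlf (0.647) and -1.15 for Nfil3 (0.558), so the call on Dbp turned on that animal.

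The last comparison asked what E2 did in HFD males. The output factors had lower means in HFD+E2 M than in HFD M, with wide scatter between animals, and none of the 4 genes passed. Of 15010 genes tested, 0.00666% passed the adjusted threshold and 5.87% the looser one, Tef among the latter. Tef ranged over 21.6, 34.7 and 55.2 TPM in HFD+E2 M against 44.6, 51.5 and 57.1 TPM in HFD M. In TPM, 5 of the 6 treated animals lay below every HFD male and HFD+E2 M replicate 5 lay among them. In scaled counts, the unit tested, HFD+E2 M replicate 2 also lay among the HFD males, at 142 CPM of Tef beside 113.9 to 163.1 CPM. The log2 fold change of Tef was -0.47 (SE 0.19, edgeR adjusted p = 0.461).

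Dbp ranged over 11.8, 23.1 and 61.2 TPM in HFD+E2 M against 32.1, 40.3 and 46.5 TPM in HFD M. In TPM, 5 of the 6 treated animals lay below every HFD male and HFD+E2 M replicate 5 lay above them all. In scaled counts, the unit tested, the HFD males spanned 23.4 to 70.5 CPM of Dbp, and 2 treated animals lay below them and the other 4 among them, with HFD+E2 M replicate 2 at 62.0 CPM and replicate 5 at 58.96 CPM. Its log2 fold change was -0.27 (adjusted p = 0.764), and -0.47 (adjusted p = 0.578) without HFD+E2 M replicate 5. The change of Hlf was -0.20 (adjusted p = 0.677) and that of Nfil3 0.01. Set against CD M, the HFD+E2 M group differed by 0.21 in Dbp, 0.10 in Tef, 0.01 in Hlf and 0.05 in Nfil3, none of which passed (0.212% of 15109 genes did) or met the looser threshold (5.99% did) and whose signs changed with the settings tried. The HFD males are the controls of one of these comparisons and the treated males enter both. Macrophage, goblet cell and squamous markers met the looser threshold in HFD+E2 M against HFD M for 2 of 10, 3 of 7 and 3 of 4 genes tested, the first 2 higher and the last lower after E2. With the squamous genes as a covariate the values were -0.29 for Dbp, -0.46 for Tef, -0.22 for Hlf and -0.0167 for Nfil3, and the part of the macrophage and goblet cell genes was not tested.

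Set beside Nfil3 in TPM, Dbp and Tef were the more abundant in all 30 libraries, while Hlf lay below Nfil3 in some. In raw counts Dbp lay below Nfil3 in CD F replicates 1 (29 against 32), 2 (45 against 51) and 6 (34 against 37). The exons of Dbp are the longer (2993 against 2026 bases), so a correction for length alone would lower Dbp further beside Nfil3. The order of Dbp and Nfil3 in CD F thus depended on which deposited measure was used, and the cause was not tested. The ratio of Dbp to Nfil3 in TPM had a median of 1.52 in CD F, 29.7 in CD M, 23.9 in HFD F, 59.9 in HFD M and 37.1 in HFD+E2 M. The ratio of Tef to Nfil3 had a median of 6.47 in CD F, 47.9 in CD M, 28.8 in HFD F, 76.0 in HFD M and 50.9 in HFD+E2 M. Hlf was below Nfil3 in all 6 CD females, with ratios between 0.397 and 0.922, and in HFD F replicate 6, at 0.837. It was above Nfil3 in the other 5 HFD females and in every male, with a lowest ratio of 1.26 among the males. Tef and Hlf relative to Nfil3 did not overlap between CD F and CD M, whereas Dbp relative to Nfil3 did, through the ratio of 25.6 in CD F replicate 4 against 1.32 to 2.15 in the other 5. On the log2 scale the ratio in CD F minus that in CD M was -3.90 for Dbp, -2.88 for Tef and -2.41 for Hlf, with pooled SDs of 1.35, 0.93 and 0.84. These ratios combine 2 of the genes tested above and were given no test.

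**Figure D3:**
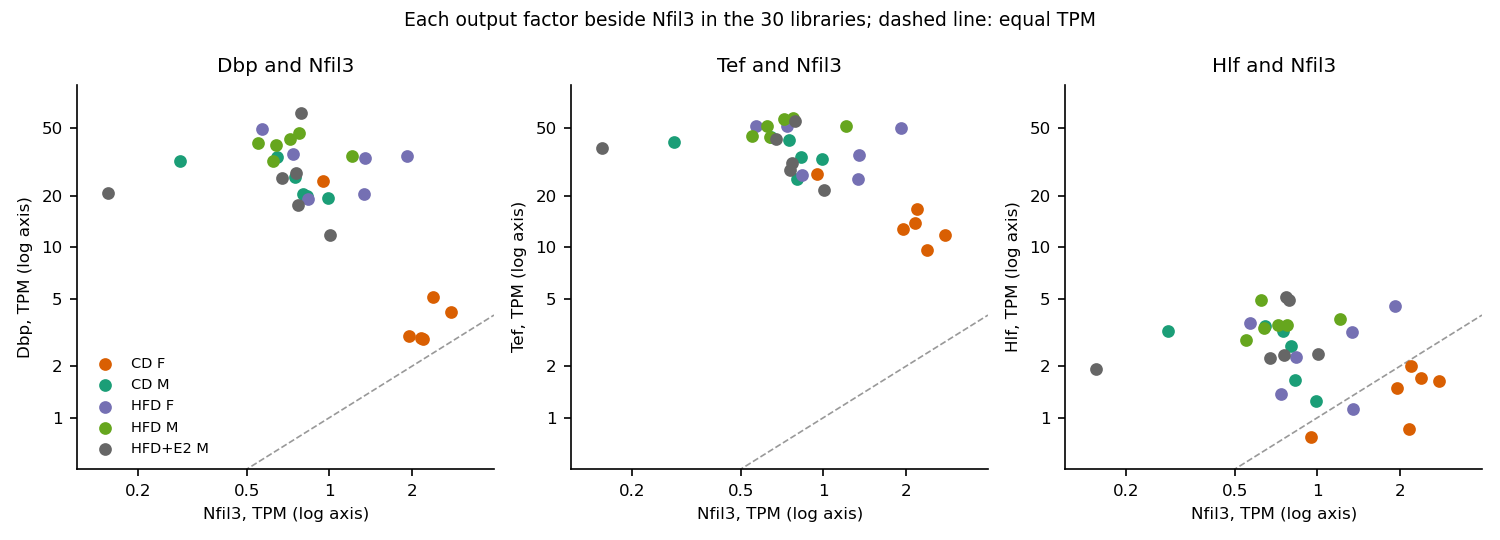
TPM of Dbp, Tef and Hlf (vertical log axes) against TPM of Nfil3 (horizontal log axis) in the 30 libraries, by group, with a dashed line at equal TPM. CD females lie to the right and low, Hlf is below the line in all 6 of them, and 1 CD female lies with the other groups for Dbp and Tef.

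Animals of the same group also varied together. After the mean of each group was removed, Dbp and Tef were correlated over the 30 libraries (Pearson r = 0.715, Spearman rho = 0.6, permutation p adjusted over the 6 pairs 0.00342 and 0.00846). Nfil3 was inversely related to Tef (r = -0.566, rho = -0.459, permutation p adjusted 0.0103 and 0.0533) and to Dbp (r = -0.55, rho = -0.412, permutation p adjusted 0.0103 and 0.0533). The rank correlations of Nfil3 thus missed 0.05 after adjustment. None of the relations of Hlf passed (r = 0.19 with Dbp, 0.294 with Tef and -0.209 with Nfil3, permutation p adjusted 0.236 or above). Without the 2 libraries farthest from the median of the first gene, r was 0.752 for Dbp and Tef, -0.581 for Dbp and Nfil3 and -0.555 for Tef and Nfil3. With TPM in place of normalised counts, r was -0.388 for Tef and Nfil3 and -0.378 for Dbp and Nfil3, neither of which passed (permutation p adjusted 0.138 for each), so the inverse relation of Nfil3 depended on the unit. Within single groups of 6, Dbp and Tef were positively related in all 5 (r between 0.438 and 0.885), Dbp and Nfil3 negatively in all 5 (-0.765 to -0.115), and Tef and Nfil3 negatively in 4 and positively in HFD M (0.745).

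Some core clock genes also passed in CD F against CD M, 2 of 4 activators and 2 of 10 repressors, beside 2.92% of all genes. Of the 4 clock activators, Arntl and Npas2 were higher in CD F than in CD M (log2 fold change 1.16, adjusted p = 0.0254, and 0.80, adjusted p = 0.0490), while Clock (0.13) and Arntl2 (-0.15) did not pass. Of the 10 clock repressors 2 passed and were lower in CD F, Ciart (-2.61, adjusted p = 0.000415), which encodes a repressor of the Clock and Bmal1 pair, and Nr1d2 (-1.03, adjusted p = 0.0217). Per3 (-0.87), Nr1d1 (-1.07) and Bhlhe41 (-1.12) met the looser threshold in the same direction and Cry1 (0.73) in the other, and Per1 (-0.31), Per2 (-0.18), Cry2 (-0.26) and Bhlhe40 (0.04) met neither. Without CD F replicate 4, Arntl (1.29, adjusted p = 0.0102), Ciart (-2.98, 8.14e-05) and Nr1d2 (-1.28, 0.000366) passed, as did Per3 (-1.15, 0.00557), Nr1d1 (-1.66, 0.0235) and Cry1 (0.895, 0.0179), while Npas2 (0.85, 0.0583) did not. With all animals, the median log2 fold change was 0.47 over the activators, -0.59 over the repressors and -1.12 over the 4 genes described here, beside 0.01 over all genes tested.

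In HFD F against CD F, Ciart was higher (log2 fold change 2.67, edgeR adjusted p = 0.0332) and was the sole clock activator or repressor to pass, beside 0.0199% of all genes. Arntl (-1.09) and Npas2 (-0.84) met the looser threshold as lower values, Per1 (0.64), Per3 (1.01), Nr1d2 (0.95) and Bhlhe41 (1.29) as higher ones, and Cry1 (-0.91) as a lower one. Without CD F replicate 4, Ciart (3.03, adjusted p = 0.00532), Nr1d2 (1.19, 0.00553) and Per3 (1.29, 0.00805) passed. In HFD M against CD M, Arntl (-0.66) and Npas2 (-0.71) were lower and Per2 (0.62), Per3 (0.43) and Ciart (0.84) higher at the looser threshold. In HFD+E2 M against HFD M, Arntl (1.14) and Npas2 (0.86) were higher and Ciart (-1.11) lower at that threshold, beside Tef at -0.47. Over both sexes, Arntl (-0.88, adjusted p = 0.0466), Per3 (0.72, adjusted p = 0.0439) and Ciart (1.56, adjusted p = 0.0254) passed in HFD against CD, 1 of 4 activators and 2 of 10 repressors beside 0.418% of all genes, and these 3 and Nr1d2 (0.71, adjusted p = 0.0414) passed without CD F replicate 4. These comparisons share animals, so their values are set side by side and not counted as separate evidence.

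**Figure D4:**
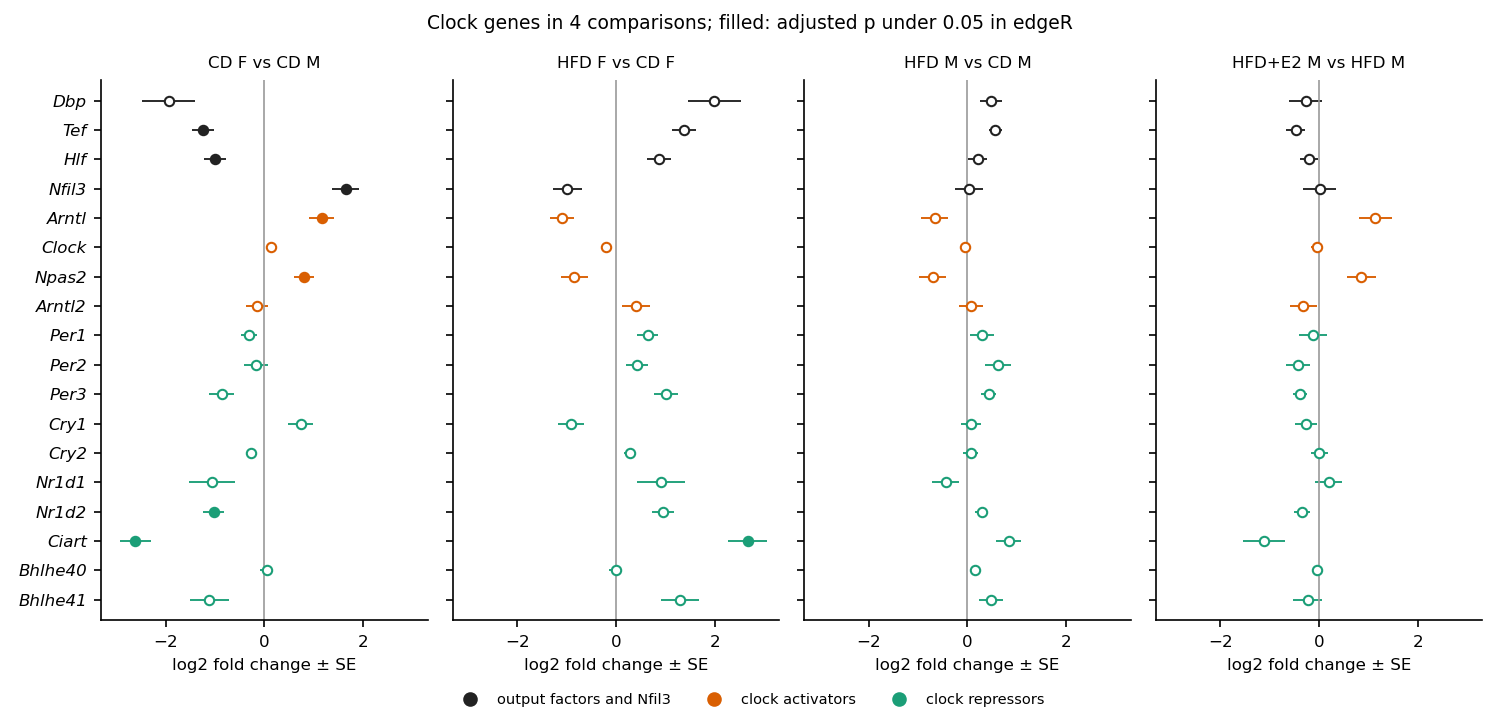
Log2 fold change ± SE of the 4 genes and of the clock activators and clock repressors, in CD F against CD M, HFD F against CD F, HFD M against CD M and HFD+E2 M against HFD M, with filled points where edgeR's adjusted p was under 0.05. In the CD F against CD M panel, Tef, Hlf, Nr1d2 and Ciart are filled on the left and Nfil3, Arntl and Npas2 on the right, and in the panel of HFD F against CD F, Ciart alone is filled.

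Levels of each gene were then compared with those of 13710 other expressed genes over the 30 libraries, as Pearson's r of normalised log2 counts and as a description without test, since the libraries share groups and depth. The 4 genes themselves were left out of this ranking. On the same scale r was 0.908 between Dbp and Tef, -0.802 between Dbp and Nfil3 and -0.782 between Tef and Nfil3. Outside the 4 genes, those most like Tef were Ciart (r = 0.95), Per3 (0.95) and Nr1d2 (0.92), and the most unlike were Arntl (-0.91), Npas2 (-0.87) and Cpm (-0.80). Those most like Dbp were Nr1d2 (0.93), Ciart (0.89) and Per3 (0.86), and the most unlike were Cldn8 (-0.82), Lifr (-0.82) and Arntl (-0.79). Nfil3 was least like Ciart (-0.78), Ms4a10 (-0.76) and Per3 (-0.75), and most like Zfp398 (0.73), Coq5 (0.70) and Slc39a8 (0.69). Hlf had Flrt2 (0.78), Tex15 (0.76) and Per3 (0.75) as its nearest genes and Ddc (-0.76), Eif2b1 (-0.76) and Chst4 (-0.69) as the farthest. With the 4 genes left out, Per3, a Period gene, was among the 3 nearest genes of each output factor and among the 3 farthest of Nfil3.

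With group means removed, Tef kept Ciart (0.86), Per3 (0.85), Arntl (-0.89) and Npas2 (-0.77) among its extremes, joined by Ces1e (0.74) and St5 (-0.70). Dbp kept Nr1d2 (0.80), joined by 0610005C13Rik (0.85) and Tns4 (0.76) on one side and by Cry1 (-0.70), Nefl (-0.70) and Sntg2 (-0.67) on the other. Hlf kept Tex15 (0.65) and Ddc (-0.68), joined by Fam171a1 (0.62), Park2 (0.60), Gsr (-0.64) and Sdhaf1 (-0.64), none of them a core clock gene. Nfil3 kept Ciart (-0.63), joined by Serpinc1 (0.74), Enah (0.67) and Kcna1 (0.66) and by Ighv7-1 (-0.64) and Rdh9 (-0.61). Among these extremes Tef had 4 core clock genes, Dbp 2, Nfil3 1 and Hlf 0.

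No D-box target gene or other bZIP factor passed the adjusted threshold in the 9 comparisons. Of 12 D-box target genes outside the clock, 10 were tested in CD F against CD M and none passed. Cyp2b10, a detoxification enzyme, met the looser threshold at -0.99 (adjusted p = 0.108), and the list had a median of -0.02. Without CD F replicate 4, Por (-0.60) met that threshold as well. In HFD F against CD F 1 of 9 met it with all animals, Usp2 (0.55), beside 3.67% of all genes. Without CD F replicate 4, Por (0.64) met it there too. In HFD M against CD M 4 of the 10 met the looser threshold, beside 2.9% of all genes, with higher counts, Usp2 (0.62), Wee1 (0.53), Abcb1b (0.52) and Cyp2b10 (0.66), although in TPM the mean of Abcb1b was lower in HFD M (9.45) than in CD M (10.8). In HFD+E2 M against HFD M Cyp2b10 (-1.08) and Wee1 (-0.51) met the looser threshold with lower values, 2 of 10 beside 5.87% of all genes. Of the 6 C/EBP family genes, bZIP factors that bind related elements, 5 were tested and none passed in any of the 9 comparisons, with Ddit3 at the looser threshold in HFD+E2 M against HFD M (0.43) and against CD M (0.45). Among 10 lipid genes of the epithelium, Cd36, a fatty acid transporter, was lower in CD F than in CD M (-0.62, adjusted p = 0.0407, and -0.67, adjusted p = 0.0437, without CD F replicate 4), and in HFD F against CD F it was at 0.60 and Dgat2, a triglyceride synthesis enzyme, at 0.78 (looser threshold). Of 9 lipid genes tested in HFD+E2 M against CD M, Apob passed (0.66, adjusted p = 0.0177), beside 0.212% of all genes. There 1 other lipid gene met the looser threshold with a lower value, beside 5.99% of all genes. Of the 8 kinase and ligase genes of the clock proteins 7 were tested in CD F against CD M, and none passed or met the looser threshold in any comparison.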

How the data were processed

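RNA from the colon of 30 mice, 6 per group, was sequenced by the authors as ribosomal RNA-depleted stranded libraries. The submitters' processing notes name bcl2fastq 2.19.1.403, Trim Galore, STAR, featureCounts and StringTie, with GRCm38 (mm10). The deposited counts are raw reads per gene from featureCounts, and the deposited TPM values per library come from StringTie, both made by the authors. Here, counts were tested with edgeR 4.0.16 (R 4.3.3) after filterByExpr and TMM, by the quasi-likelihood test with Benjamini-Hochberg adjustment over all genes tested, fitted on the 12 libraries of each pair or the 24 vehicle libraries. The test was checked on simulated data. No pair of libraries in a group agreed within sampling noise. Alternatives were DESeq2 1.42.0, limma 3.58.1 on log2 TPM with 0.1 or 1 added, other filters and scalings, marker scores as covariates, the replicate block and leaving out each library. Correlations used 100000 permutations of animals within groups, two-sided. The members and gene lists were chosen with earlier results of these data known. Named genes are the 4 members, the listed clock, bZIP, D-box and lipid genes, and the 3 nearest and farthest genes of each member by Pearson's r among genes with a mean of at least 1 TPM, members excluded. Counting errors of low genes cover sampling only. Promoter sequences are RefSeq's. A further clock gene list is not reported here. Each library was left out in turn for the 4 members, but CD F replicate 4 was singled out for the text after seeing the data. Leaving it out for clock, D-box target and lipid genes was chosen after seeing the data as well.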

Additional observations from a re-analysis of the deposited data

Results flagged for a closer look

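Of 20 sets of 6 animals (4 genes in 5 groups), 3 held an animal whose gap to the others was beyond Dixon's limit, where chance flags about 1 in 20. Dbp in CD F replicate 4 was 24.3 TPM, against at most 5.12 TPM in the other 5 CD females. Dbp in HFD+E2 M replicate 5 was 61.2 TPM, against at most 27.1 TPM in the other 5. Nfil3 in HFD M replicate 1 was 1.21 TPM, against at most 0.774 TPM in the other 5.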

How the results depend on the processing

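Of 456 values under other settings, 408 kept their direction and side of the threshold, 19 lost a call, 14 gained one and 15 changed sign. In CD F against CD M, Dbp passed with DESeq2 (-1.92), with all 30 libraries in one fit (-1.94) and with limma on TPM (-2.32 with 0.1 added, with or without a minimum of 1 TPM, and -2.09 with 1 added). There Hlf lost its call with limma (-0.81 with or without the minimum, -0.55 with 1 added) and with B cell (-1.06) or squamous (-0.88) genes as covariate, Nfil3 with limma (1.42, 0.1 added), and Tef with B cell (-1.32) or smooth muscle (-1.37) genes. For females against males over both diets, Dbp passed with DESeq2 (-1.17), all 30 libraries (-1.19) and limma (-1.34, with or without the minimum), Hlf did not with limma (-0.69 with or without the minimum, -0.48), B cell (-0.59) or smooth muscle (-0.57) genes, and Nfil3 did not with limma (0.94, with or without the minimum). In HFD F against CD F, Tef passed with DESeq2 (1.37), all 30 libraries (1.38) and the replicate block (1.42), and Dbp with all 30 libraries (1.99). Over both sexes, HFD against CD, Dbp passed with DESeq2 (1.22) and Tef did not with limma (0.94 with or without the minimum, 0.91) or squamous genes (0.91). The causes were not tested.

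Signs changed only for values near 0. In HFD+E2 M against CD M these were Dbp with limma (-0.0492 and -0.0426), Tef with limma (-0.0563 and -0.0539), Hlf with smooth muscle genes (-0.0233) and Nfil3 with limma (-0.10 and -0.0287) or squamous genes (-0.0586). In HFD+E2 M against HFD M they were Nfil3 with B cell genes (-0.0370), limma (-0.19 and -0.0607), the replicate block (-0.0301) and squamous genes (-0.0167). Nfil3 could not be fitted under some stricter filters, which removed it. Same-numbered animals of 2 groups correlated at -0.22 to 0.47, over 0.1 in 19 of 36 pairs, and over 0.1 in 5 of 6 pairs in CD F against CD M and in HFD M against CD M. Since not every pair was over 0.1 and no label ties the numbers together, they were not taken to pair the animals. The block changed no call on the 4 genes but that on Tef named above. Within groups on TPM, r was -0.0122 for Dbp and Hlf, -0.378 for Dbp and Nfil3, -0.388 for Tef and Nfil3 and 0.191 for Hlf and Nfil3. On normalised counts with group means kept, it was 0.683 for Dbp and Hlf, 0.726 for Tef and Hlf and -0.648 for Hlf and Nfil3.

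Over all genes, calls in CD F against CD M numbered 435 with edgeR, 776 with DESeq2, 941 with the block and 46 with B cell genes as covariate. In HFD F against CD F they numbered 3, 215 with DESeq2 and 12 with the block. Limma on TPM moved the median of all genes in CD F against CD M to -0.10.

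Leaving out each library in turn, the log2 fold changes ranged as follows. In CD F against CD M, Dbp ranged from -2.91 to -1.77, Tef -1.50 to -1.17, Hlf -1.17 to -0.87 and Nfil3 1.50 to 1.77. In HFD F against HFD M, Dbp ranged from -0.56 to -0.23, Tef -0.52 to -0.34, Hlf -0.42 to -0.22 and Nfil3 0.475 to 0.77. In HFD F against CD F, Dbp ranged from 1.82 to 2.95, Tef 1.29 to 1.63, Hlf 0.77 to 1.03 and Nfil3 -1.14 to -0.85. In HFD M against CD M, Dbp ranged from 0.28 to 0.63, Tef 0.48 to 0.63, Hlf 0.09 to 0.33 and Nfil3 -0.12 to 0.12. In HFD+E2 M against HFD M, Dbp ranged from -0.49 to -0.08, Tef -0.60 to -0.36, Hlf -0.29 to -0.10 and Nfil3 -0.17 to 0.20. In HFD+E2 M against CD M, Dbp ranged from -0.0206 to 0.37, Tef -0.0377 to 0.22, Hlf -0.10 to 0.15 and Nfil3 -0.14 to 0.22. Over both sexes, Dbp ranged from 1.07 to 1.51, Tef 0.90 to 1.06, Hlf 0.46 to 0.60 and Nfil3 -0.62 to -0.45. Over both diets, Dbp ranged from -1.46 to -1.02, Tef -0.93 to -0.78, Hlf -0.71 to -0.58 and Nfil3 1.07 to 1.25. For the interaction, Dbp ranged from 1.34 to 2.48, Tef 0.73 to 1.06, Hlf 0.52 to 0.82 and Nfil3 -1.17 to -0.87. With 3 to 51 counts per library, depth limits Nfil3, and Dbp in CD F also rested on few reads (lowest 29, median 45.5 counts).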
